A study of Mus musculus with 12 samples.

Results

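The skeletal muscle genes described here are 43 genes of the contractile apparatus, calcium handling and energy supply of skeletal muscle fibres, measured in mammary gland RNA of mice with and without cyclin D1. They were taken by symbol from a list of muscle genes, and all 43 were found among the 18194 genes of the array table. The list names 14 genes of fast fibres and 9 of slow fibres, and the other 20 carry no fibre label. Where a gene had several probe sets, the probe set with the highest mean over the 12 arrays stood for it. Levels are log2 intensities, so 1 unit is a 2-fold difference. Because probe sets differ in how brightly they bind, levels were compared between arrays for the same gene and never between genes.

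The series compared C57BL/6 mice, 6 lacking Ccnd1 and 6 carrying it, in 4 groups of 3. The Ccnd1-/- estradiol group and the Ccnd1+/+ estradiol group received pellets holding 0.72 mg of estradiol with a release time of 60 days, and the Ccnd1-/- placebo group and the Ccnd1+/+ placebo group received placebo. All animals were virgin, all were ovariectomised before treatment, all were treated for 7 days, and each was profiled on 1 array as a separate animal. The labels give no age, do not say which gland was taken, and do not say whether lymph node or underlying muscle was trimmed away. The labels name no tissue-limited or inducible form of the Ccnd1 deletion.

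A muscle fibre shortens when myosin heads of the thick filament pull on the actin of the thin filament. Calcium released from the sarcoplasmic reticulum binds troponin C, which moves tropomyosin and frees the actin. Fast and slow fibres carry different genes for the same parts of this machine, so that a fast and a slow troponin T, I and C, and fast and slow myosin chains, can be read side by side. The mammary gland itself is built of epithelium, fat and stroma and has no striated muscle, although it lies on the muscles of the chest and abdominal wall and under the thin cutaneous muscle.

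Across the 12 arrays the medians lay between 5.73 and 5.8, the lower quartiles between 4.15 and 4.29, and pairs of arrays correlated at 0.937 to 0.993. The Ccnd1 probe set read 7.24 to 7.68 in the 6 Ccnd1-/- glands and 8.50 to 10.82 in the 6 Ccnd1+/+ glands, with no overlap. Adipoq, an adipocyte hormone, read 13.49 to 13.81 in all glands. The keratin Krt8 of luminal mammary epithelium read 5.32 to 9.20 in Ccnd1-/- glands and 8.44 to 12.96 in Ccnd1+/+ glands.

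The promoters of myosin heavy chain genes are shown because these genes include fast and slow forms, whose levels are described further on. Each window holds the 250 bases before the annotated transcription start, from RefSeq on GRCm38.p6. Myh4, Myh1 and Myh2 encode fast heavy chains and stand on the plus strand of 1 stretch of chromosome 11, at chr11:67237562-67237811, chr11:67199852-67200101 and chr11:67170777-67171026. Myh7 encodes the slow heavy chain, also used in heart, and stands on the minus strand at chr14:54994627-54994876. Capitals mark matches to the E-box CANNTG, where N is any base, to the MEF2 motif and to the CArG box, which are the motifs of the MyoD family, of the MEF2 factors and of serum response factor.
Myh4: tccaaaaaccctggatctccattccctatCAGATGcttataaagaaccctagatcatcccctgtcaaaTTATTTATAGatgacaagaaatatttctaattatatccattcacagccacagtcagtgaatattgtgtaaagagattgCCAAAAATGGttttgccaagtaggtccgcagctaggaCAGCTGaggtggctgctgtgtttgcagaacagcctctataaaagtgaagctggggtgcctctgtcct
Myh1: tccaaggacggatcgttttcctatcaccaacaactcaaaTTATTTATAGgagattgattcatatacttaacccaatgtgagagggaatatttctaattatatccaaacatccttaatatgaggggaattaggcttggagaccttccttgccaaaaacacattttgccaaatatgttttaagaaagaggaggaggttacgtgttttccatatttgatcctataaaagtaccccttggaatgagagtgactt
Myh2: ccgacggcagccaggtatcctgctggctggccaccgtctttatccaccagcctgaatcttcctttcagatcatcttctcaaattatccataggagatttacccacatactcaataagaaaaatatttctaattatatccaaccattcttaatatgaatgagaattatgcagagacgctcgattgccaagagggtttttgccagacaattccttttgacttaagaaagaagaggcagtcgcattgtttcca
Myh7: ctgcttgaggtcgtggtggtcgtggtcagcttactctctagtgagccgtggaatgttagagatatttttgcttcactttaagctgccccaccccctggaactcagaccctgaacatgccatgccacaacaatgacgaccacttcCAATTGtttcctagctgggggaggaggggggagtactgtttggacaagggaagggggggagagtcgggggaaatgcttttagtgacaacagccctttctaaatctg
The Myh4 window held 2 E-boxes, 1 of them CAGCTG, with 1 MEF2 motif and 1 CArG box. The Myh1 window held only the MEF2 motif, the Myh2 window held no match, and the Myh7 window shown held 1 E-box. The window of another Myh7 start, at chr14:54994550-54994799, overlaps it, held 2 E-boxes and is not shown. The same 250-base windows were found for 33 of the members (39 windows, some genes having more than 1 start), and 10 members had no entry. Some windows of Tnni1, Mb and Myh7 overlap, so the counts of windows below hold the same bases more than once. On both strands CANNTG stood in 34 of 39 member windows, 87.2%, against 66.2% of all 32851 promoter windows. Its form CAGCTG, which is counted within CANNTG too, stood in 20 of 39, 51.3%, against 13.0% of all. The MEF2 motif stood in 7 of 39, 17.9%, against 2.92% of all, and the CArG box in 3 of 39, 7.69%, against 1.47% of all. Fast and slow members both held these motifs: CAGCTG stood in 5 of 11 fast windows and 5 of 12 slow windows, the slow ones including both overlapping windows of Tnni1. A match is a string of letters in the window and was not tied to binding or to any level below.

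The muscle genes varied more from mouse to mouse than most genes on the arrays, and they did so inside the groups. Between the lowest and the highest array the median member spanned 5.93 log2 units, against 0.80 for all genes. Of the 43 members, 34 spanned more than 4 units, 27 more than 5, and 3 less than 2. The SD within groups had a median of 1.94 over the members and 0.22 over all genes. No member lay under that all-gene median, 34 members stood among the 500 genes with the highest SD, and 20 among the top 100. The share of a member's variance that lay between the 4 groups had a median of 21.9%, against 32.4% over all genes.

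**Figure D1:**
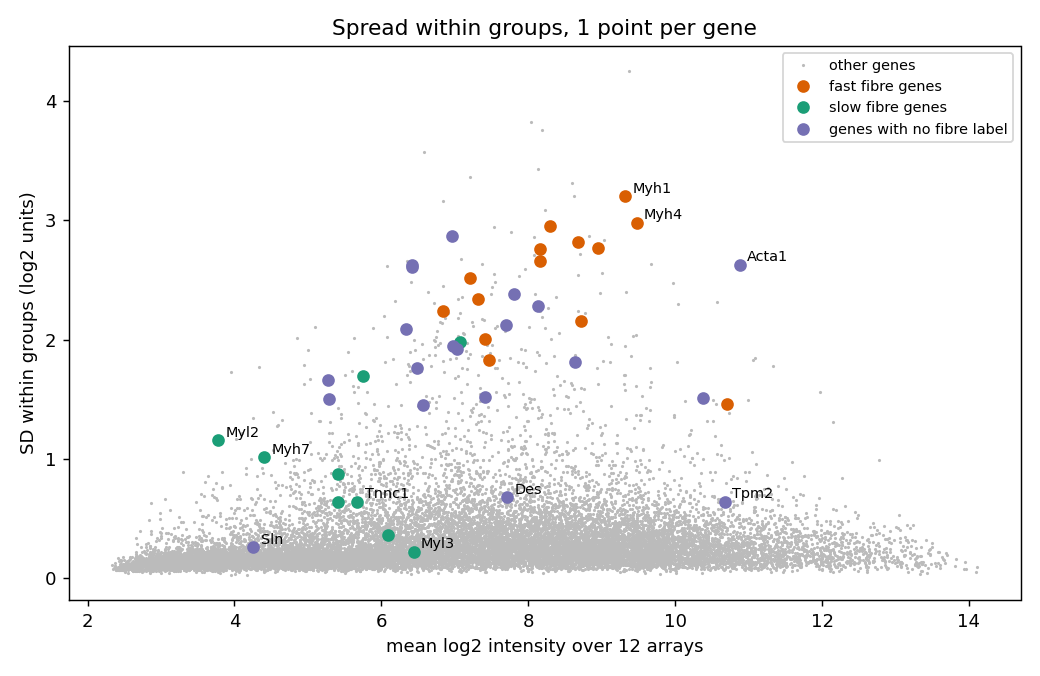
Each point is a gene, with its mean log2 intensity over 12 arrays on the x axis and its SD within the 4 groups, in log2 units, on the y axis. Grey points are other genes, orange points the 14 fast fibre genes (SD 1.46 to 3.20), green points the 9 slow fibre genes (0.22 to 1.98) and purple points the 20 genes with no fibre label (0.26 to 2.87).

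Averaged over the 43 members, each as a deviation from its own 12-array mean, the level was 1.64, -1.79 and -1.04 in Ccnd1-/- estradiol glands, -2.02, 1.65 and -2.09 in Ccnd1-/- placebo glands, 0.88, -0.29 and 0.31 in Ccnd1+/+ estradiol glands, and 1.02, 2.86 and -1.13 in Ccnd1+/+ placebo glands. High and low glands stood side by side in 3 of the groups, and the Ccnd1+/+ estradiol glands lay between them. The mean was -0.40 ± 1.80 in Ccnd1-/- estradiol glands, -0.82 ± 2.14 in Ccnd1-/- placebo glands, 0.30 ± 0.58 in Ccnd1+/+ estradiol glands and 0.92 ± 2.00 in Ccnd1+/+ placebo glands (SD, n = 3 each), so the spread inside 3 of the 4 groups exceeded every gap between group means. The highest gland of all was replicate 2 of the Ccnd1+/+ placebo group, where 33 members had their highest value. Replicate 2 of the Ccnd1-/- placebo group held the highest value of 9 members, and replicate 1 of the Ccnd1+/+ estradiol group that of 1, Sln. The lowest values were mostly in replicate 3 (13 members) and replicate 1 (10 members) of the Ccnd1-/- placebo group and in replicate 3 of the Ccnd1+/+ placebo group (8 members). In replicate 3 of the Ccnd1-/- placebo group 11 of 43 members lay under the lower quartile of the array, and in replicate 2 of the same group none did. The count of 11 is about the share of all probe sets that lies under a lower quartile by definition, so it is no excess of dim members. In whole-tissue RNA, fewer muscle fibres in a gland and less RNA per fibre cannot be told apart.

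**Figure D2:**
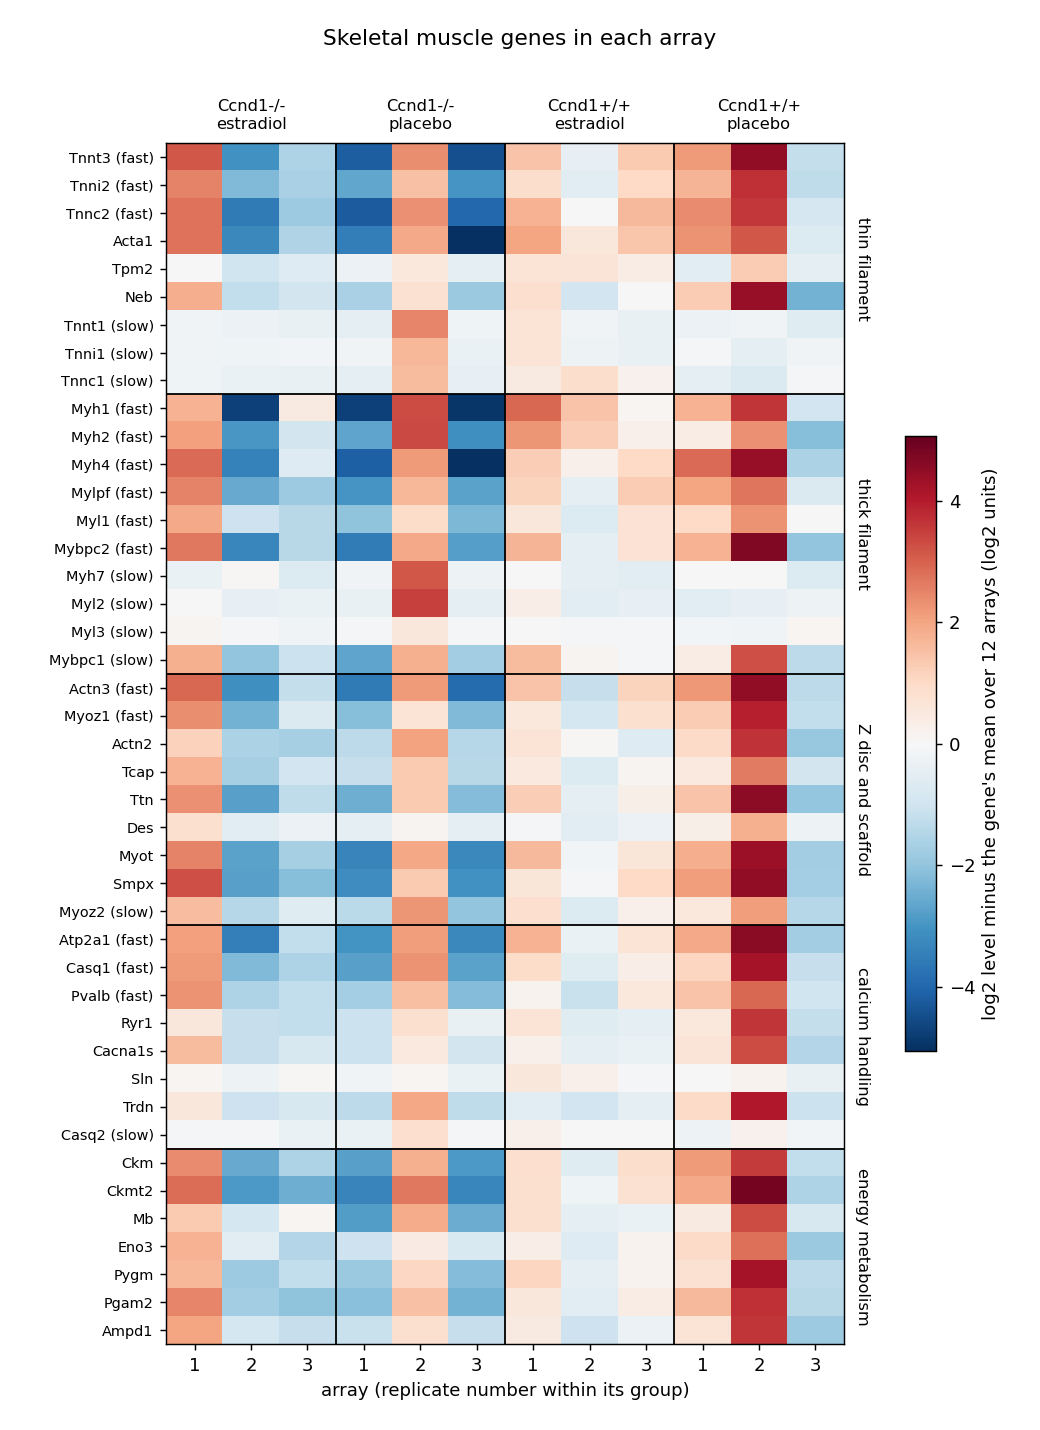
Rows are the 43 genes, grouped by role, and columns are the 12 arrays in their 4 groups. Colour is the log2 level minus that gene's mean over 12 arrays, red above and blue below. Most rows share 1 pattern, with replicate 2 of the Ccnd1+/+ placebo group highest, and most slow fibre rows are pale except in replicate 2 of the Ccnd1-/- placebo group.

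In the thin filament, the fast troponins and skeletal actin followed the shared pattern. Acta1, skeletal α-actin, read 13.64, 7.61 and 9.35 in Ccnd1-/- estradiol glands, 7.39, 12.81 and 5.82 in Ccnd1-/- placebo glands, 12.87, 11.44 and 12.27 in Ccnd1+/+ estradiol glands, and 13.16, 14.01 and 10.20 in Ccnd1+/+ placebo glands. Tnnt3, fast troponin T, which ties troponin to tropomyosin, read 11.46, 5.22 and 6.75 in Ccnd1-/- estradiol glands, 4.11, 10.66 and 3.84 in Ccnd1-/- placebo glands, 9.74, 7.89 and 9.62 in Ccnd1+/+ estradiol glands, and 10.44, 12.79 and 7.10 in Ccnd1+/+ placebo glands. Both were low in replicate 2 of the Ccnd1-/- estradiol group and in replicates 1 and 3 of the Ccnd1-/- placebo group, high in replicate 1 of the Ccnd1-/- estradiol group and replicate 2 of the Ccnd1-/- placebo group, and lowest among Ccnd1+/+ glands in replicate 3 of the placebo group. Every group overlapped every other. Tnni2, fast troponin I, the inhibitory subunit, read 9.37, 4.61 and 5.19 in Ccnd1-/- estradiol glands, 4.21, 8.34 and 3.84 in Ccnd1-/- placebo glands, 7.75, 6.28 and 7.86 in Ccnd1+/+ estradiol glands, and 8.56, 10.53 and 5.56 in Ccnd1+/+ placebo glands. Tnnc2, fast troponin C, the calcium sensor, read 11.72, 5.37 and 7.12 in Ccnd1-/- estradiol glands, 4.74, 11.25 and 4.99 in Ccnd1-/- placebo glands, 10.72, 8.96 and 10.61 in Ccnd1+/+ estradiol glands, and 11.33, 12.54 and 8.09 in Ccnd1+/+ placebo glands. The order of the glands was close to that of Tnnt3, with the groups again overlapping. Neb, nebulin, which runs along the actin filament, spanned 6.82 log2 units and was also highest in replicate 2 of the Ccnd1+/+ placebo group.

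The slow troponins did not follow it. Tnnt1, slow troponin T, read 5.23, 5.09 and 5.04 in Ccnd1-/- estradiol glands, 4.95, 7.88 and 5.18 in Ccnd1-/- placebo glands, 6.10, 5.22 and 5.04 in Ccnd1+/+ estradiol glands, and 5.09, 5.24 and 4.78 in Ccnd1+/+ placebo glands. Tnni1, slow troponin I, read 5.22, 5.19 and 5.29 in Ccnd1-/- estradiol glands, 5.24, 7.11 and 5.09 in Ccnd1-/- placebo glands, 6.10, 5.16 and 5.04 in Ccnd1+/+ estradiol glands, and 5.30, 4.96 and 5.23 in Ccnd1+/+ placebo glands. Both stood out in replicate 2 of the Ccnd1-/- placebo group, came next in replicate 1 of the Ccnd1+/+ estradiol group, and in the other 10 glands stayed between 4.78 and 5.30. In replicate 2 of the Ccnd1+/+ placebo group, where the fast troponins peaked, Tnnt1 was at 5.24 and Tnni1 at 4.96. Tnnc1, slow and cardiac troponin C, read 5.46, 5.32 and 5.29 in Ccnd1-/- estradiol glands, 5.22, 7.29 and 5.24 in Ccnd1-/- placebo glands, 6.11, 6.55 and 5.88 in Ccnd1+/+ estradiol glands, and 5.16, 4.92 and 5.60 in Ccnd1+/+ placebo glands. It too was highest in replicate 2 of the Ccnd1-/- placebo group, but next came the 3 Ccnd1+/+ estradiol glands, all above the 3 Ccnd1-/- estradiol glands and the 3 Ccnd1+/+ placebo glands.

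Tpm2, β-tropomyosin, which carries no fibre label in the list and is also present in smooth muscle, read 10.65, 9.67 and 10.02 in Ccnd1-/- estradiol glands, 10.40, 11.20 and 10.17 in Ccnd1-/- placebo glands, 11.38, 11.32 and 11.07 in Ccnd1+/+ estradiol glands, and 10.13, 11.95 and 10.18 in Ccnd1+/+ placebo glands. It had the highest level in replicate 2 of the Ccnd1+/+ placebo group, like the fast genes, while the 3 Ccnd1+/+ estradiol glands lay above all 3 Ccnd1-/- estradiol glands. Its other 3 probe sets were highest in the same gland, with ranges of 5.49, 2.64 and 5.0 log2 units beside 2.28 for the probe set used.

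In the thick filament, the fast heavy chains had some of the widest ranges of the whole list. Myh4, the heavy chain of the fastest fibres, read 12.35, 6.07 and 8.83 in Ccnd1-/- estradiol glands, 5.33, 11.65 and 4.41 in Ccnd1-/- placebo glands, 10.74, 9.73 and 10.50 in Ccnd1+/+ estradiol glands, and 12.36, 13.87 and 7.87 in Ccnd1+/+ placebo glands. Its range of 9.46 log2 units was the widest of all members, followed by Tnnt3 (8.95) and Myh1 (8.57). Myh1, the heavy chain of intermediate fast fibres, read 11.06, 4.60 and 9.78 in Ccnd1-/- estradiol glands, 4.60, 12.61 and 4.39 in Ccnd1-/- placebo glands, 12.22, 10.78 and 9.40 in Ccnd1+/+ estradiol glands, and 11.07, 12.95 and 8.34 in Ccnd1+/+ placebo glands. Myh2, the heavy chain of fast oxidative fibres, read 9.29, 4.27 and 6.27 in Ccnd1-/- estradiol glands, 4.52, 10.55 and 4.10 in Ccnd1-/- placebo glands, 9.44, 8.45 and 7.48 in Ccnd1+/+ estradiol glands, and 7.59, 9.51 and 5.05 in Ccnd1+/+ placebo glands. All of them were low in replicate 2 of the Ccnd1-/- estradiol group and in replicates 1 and 3 of the Ccnd1-/- placebo group, and their groups overlapped. Myh2 alone among the 14 fast genes was highest in replicate 2 of the Ccnd1-/- placebo group and not in replicate 2 of the Ccnd1+/+ placebo group. The fast heavy chain genes are close copies of each other, so how far their probe sets share signal is uncertain.

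Myh7, the slow heavy chain, read 4.08, 4.45 and 3.72 in Ccnd1-/- estradiol glands, 4.23, 7.53 and 4.13 in Ccnd1-/- placebo glands, 4.42, 3.96 and 3.83 in Ccnd1+/+ estradiol glands, and 4.37, 4.42 and 3.70 in Ccnd1+/+ placebo glands. Replicate 2 of the Ccnd1-/- placebo group stood 3.07 log2 units above the next gland, and the other 11 glands lay within 0.76 of each other, 6 of the 12 arrays having Myh7 under their lower quartile. Myl2, the slow regulatory light chain, read 3.80, 3.37 and 3.43 in Ccnd1-/- estradiol glands, 3.39, 7.23 and 3.29 in Ccnd1-/- placebo glands, 4.12, 3.22 and 3.36 in Ccnd1+/+ estradiol glands, and 3.26, 3.36 and 3.53 in Ccnd1+/+ placebo glands. The same gland stood 3.11 above the next, and the other 11 lay within 0.90, all of them under the lower quartile of their array. Myl3, the slow essential light chain, read 6.58, 6.35 and 6.28 in Ccnd1-/- estradiol glands, 6.38, 7.03 and 6.33 in Ccnd1-/- placebo glands, 6.42, 6.36 and 6.40 in Ccnd1+/+ estradiol glands, and 6.32, 6.28 and 6.55 in Ccnd1+/+ placebo glands. It had the narrowest range of all members, 0.76, and its top gland was again replicate 2 of the Ccnd1-/- placebo group. Its 2 other probe sets set that gland further apart, at 8.42 against 6.66 in the next gland and at 8.19 against 6.36.

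The fast light chains behaved like the fast heavy chains. Mylpf, the fast regulatory light chain, read 11.25, 6.17 and 6.88 in Ccnd1-/- estradiol glands, 5.73, 10.38 and 5.99 in Ccnd1-/- placebo glands, 9.84, 8.25 and 9.99 in Ccnd1+/+ estradiol glands, and 10.73, 11.41 and 7.99 in Ccnd1+/+ placebo glands. Myl1, the fast essential light chain, read 12.63, 9.68 and 9.29 in Ccnd1-/- estradiol glands, 8.67, 11.65 and 8.44 in Ccnd1-/- placebo glands, 11.30, 10.03 and 11.44 in Ccnd1+/+ estradiol glands, and 11.72, 12.99 and 10.69 in Ccnd1+/+ placebo glands. Both were highest in replicate 2 of the Ccnd1+/+ placebo group, with overlapping groups. Mybpc2, fast myosin-binding protein C, read 10.82, 4.84 and 6.76 in Ccnd1-/- estradiol glands, 4.60, 10.09 and 5.38 in Ccnd1-/- placebo glands, 9.88, 7.71 and 8.87 in Ccnd1+/+ estradiol glands, and 9.92, 12.83 and 6.16 in Ccnd1+/+ placebo glands. Mybpc1, named for slow fibres, read 8.88, 5.09 and 5.98 in Ccnd1-/- estradiol glands, 4.40, 8.86 and 5.31 in Ccnd1-/- placebo glands, 8.68, 7.19 and 6.96 in Ccnd1+/+ estradiol glands, and 7.43, 10.33 and 5.74 in Ccnd1+/+ placebo glands. Mybpc1 thus had its highest value in replicate 2 of the Ccnd1+/+ placebo group like its fast counterpart, and was the only slow member that did.

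At the Z disc, where thin filaments of neighbouring sarcomeres are anchored, 8 of 9 genes were highest in replicate 2 of the Ccnd1+/+ placebo group, and Myoz2 was the exception. Actn3, the fast α-actinin that crosslinks actin there, read 11.59, 5.59 and 7.48 in Ccnd1-/- estradiol glands, 5.10, 10.82 and 4.77 in Ccnd1-/- placebo glands, 10.11, 7.50 and 9.82 in Ccnd1+/+ estradiol glands, and 10.88, 13.19 and 7.34 in Ccnd1+/+ placebo glands. Myoz1, a fast fibre protein that binds α-actinin and calcineurin, read 9.79, 5.04 and 6.67 in Ccnd1-/- estradiol glands, 5.28, 8.11 and 5.17 in Ccnd1-/- placebo glands, 7.97, 6.51 and 8.21 in Ccnd1+/+ estradiol glands, and 8.71, 11.37 and 6.19 in Ccnd1+/+ placebo glands. Myoz2, its slow counterpart, read 7.33, 4.30 and 5.12 in Ccnd1-/- estradiol glands, 4.38, 8.0 and 3.74 in Ccnd1-/- placebo glands, 6.61, 5.07 and 6.01 in Ccnd1+/+ estradiol glands, and 6.30, 7.85 and 4.30 in Ccnd1+/+ placebo glands. Myoz2 spanned 4.26 log2 units, and replicate 2 of the Ccnd1-/- placebo group led replicate 2 of the Ccnd1+/+ placebo group by only 0.15. Ttn, titin, the elastic filament that spans the sarcomere, read 10.12, 5.05 and 6.52 in Ccnd1-/- estradiol glands, 5.32, 9.13 and 5.60 in Ccnd1-/- placebo glands, 9.06, 7.35 and 8.08 in Ccnd1+/+ estradiol glands, and 9.23, 12.34 and 5.83 in Ccnd1+/+ placebo glands. Replicate 2 of the Ccnd1+/+ placebo group was highest, and the Ccnd1+/+ placebo group also held a gland at the low end. Des, desmin, the intermediate filament of all muscle including smooth muscle, read 8.53, 7.19 and 7.40 in Ccnd1-/- estradiol glands, 7.23, 7.84 and 7.22 in Ccnd1-/- placebo glands, 7.60, 7.17 and 7.41 in Ccnd1+/+ estradiol glands, and 8.0, 9.53 and 7.44 in Ccnd1+/+ placebo glands. It spanned 2.36 log2 units, far less than titin, with the same gland highest. The others of this role, Actn2 (an α-actinin of all fibres), Tcap (which caps titin), Myot (myotilin) and Smpx (a small protein of the cell edge), spanned 5.59, 4.31, 7.65 and 7.61 log2 units and were all highest in replicate 2 of the Ccnd1+/+ placebo group.

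Among calcium-handling genes, Atp2a1, the fast fibre calcium pump of the sarcoplasmic reticulum, read 10.22, 4.70 and 6.91 in Ccnd1-/- estradiol glands, 5.12, 10.29 and 4.88 in Ccnd1-/- placebo glands, 9.90, 7.80 and 8.83 in Ccnd1+/+ estradiol glands, and 10.08, 12.72 and 6.40 in Ccnd1+/+ placebo glands. Pvalb, parvalbumin, the soluble calcium buffer of fast fibres, read 9.76, 5.89 and 6.24 in Ccnd1-/- estradiol glands, 5.73, 8.98 and 5.28 in Ccnd1-/- placebo glands, 7.66, 6.33 and 8.01 in Ccnd1+/+ estradiol glands, and 8.91, 10.39 and 6.45 in Ccnd1+/+ placebo glands. Replicate 2 of the Ccnd1+/+ placebo group was highest for both, and the groups overlapped. Casq1, the fast calcium store protein calsequestrin, read 9.49, 5.08 and 5.77 in Ccnd1-/- estradiol glands, 4.57, 9.60 and 4.62 in Ccnd1-/- placebo glands, 8.23, 6.69 and 7.66 in Ccnd1+/+ estradiol glands, and 8.39, 11.53 and 6.15 in Ccnd1+/+ placebo glands. Casq2, its slow and cardiac counterpart, read 6.04, 5.99 and 5.74 in Ccnd1-/- estradiol glands, 5.74, 6.95 and 6.01 in Ccnd1-/- placebo glands, 6.35, 6.13 and 6.07 in Ccnd1+/+ estradiol glands, and 5.84, 6.33 and 5.94 in Ccnd1+/+ placebo glands. Casq1 spanned 6.96 log2 units and Casq2 1.22, and Casq2 was highest in replicate 2 of the Ccnd1-/- placebo group. Ryr1, the calcium release channel, read 7.15, 5.38 and 5.32 in Ccnd1-/- estradiol glands, 5.46, 7.37 and 6.17 in Ccnd1-/- placebo glands, 7.24, 5.95 and 6.08 in Ccnd1+/+ estradiol glands, and 7.11, 10.18 and 5.36 in Ccnd1+/+ placebo glands. It stood 2.81 above every other gland in replicate 2 of the Ccnd1+/+ placebo group. Sln, sarcolipin, an inhibitor of the calcium pump that is sparse in fast mouse muscle, read 4.34, 4.02 and 4.32 in Ccnd1-/- estradiol glands, 4.06, 4.35 and 3.93 in Ccnd1-/- placebo glands, 4.85, 4.5 and 4.16 in Ccnd1+/+ estradiol glands, and 4.24, 4.44 and 3.88 in Ccnd1+/+ placebo glands. Its range was 0.96, and it lay under the lower quartile in 5 of 12 arrays. Cacna1s, the voltage sensor of the muscle membrane, and Trdn, triadin, which binds the release channel, spanned 4.82 and 5.37 log2 units.

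The 7 energy genes were all highest in the same gland, while their lowest glands differed. Ckm, the muscle creatine kinase that rebuilds ATP, read 10.54, 5.58 and 6.58 in Ccnd1-/- estradiol glands, 5.38, 9.94 and 5.24 in Ccnd1-/- placebo glands, 9.0, 7.52 and 9.04 in Ccnd1+/+ estradiol glands, and 10.28, 11.67 and 6.88 in Ccnd1+/+ placebo glands. Mb, myoglobin, which stores oxygen in oxidative fibres, read 9.97, 7.73 and 8.74 in Ccnd1-/- estradiol glands, 5.8, 10.52 and 6.14 in Ccnd1-/- placebo glands, 9.43, 8.17 and 8.31 in Ccnd1+/+ estradiol glands, and 9.09, 11.95 and 7.81 in Ccnd1+/+ placebo glands. Eno3, muscle enolase, read 12.14, 9.82 and 8.91 in Ccnd1-/- estradiol glands, 9.34, 10.81 and 9.61 in Ccnd1-/- placebo glands, 10.71, 9.72 and 10.56 in Ccnd1+/+ estradiol glands, and 11.34, 13.17 and 8.52 in Ccnd1+/+ placebo glands. Replicate 2 of the Ccnd1+/+ placebo group was highest for each, and the groups overlapped. The lowest gland was replicate 3 of the Ccnd1-/- placebo group for Ckm, replicate 1 of that group for Mb and replicate 3 of the Ccnd1+/+ placebo group for Eno3. Ckmt2 (mitochondrial creatine kinase), Pygm (glycogen phosphorylase), Pgam2 (phosphoglycerate mutase) and Ampd1 (AMP deaminase) spanned 8.21, 6.40, 6.10 and 5.44 log2 units with the same gland highest.

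The 9 fast and slow counterparts were set side by side. The fast gene of every pair was highest in replicate 2 of the Ccnd1+/+ placebo group, and the slow gene of 8 pairs in replicate 2 of the Ccnd1-/- placebo group. That gland led the next by 3.11 log2 units for Myl2, 3.07 for Myh7, 1.78 for Tnnt1 and 1.0 for Tnni1. The lead was 0.73 for Tnnc1, 0.6 for Casq2, 0.46 for Myl3 and 0.15 for Myoz2. Myoz2 and Mybpc1 followed the shared pattern, correlating with the members' mean, which includes them, at 0.965 and 0.974. Both enter the slow average. Averaged over the 14 fast genes the deviation was 2.43, -2.83 and -1.20 in Ccnd1-/- estradiol glands, -3.17, 2.02 and -3.33 in Ccnd1-/- placebo glands, 1.34, -0.27 and 0.83 in Ccnd1+/+ estradiol glands, and 1.71, 3.71 and -1.24 in Ccnd1+/+ placebo glands. Averaged over the 9 slow genes it was 0.29, -0.54 and -0.46 in Ccnd1-/- estradiol glands, -0.67, 1.98 and -0.63 in Ccnd1-/- placebo glands, 0.54, -0.13 and -0.16 in Ccnd1+/+ estradiol glands, and -0.11, 0.41 and -0.52 in Ccnd1+/+ placebo glands. Both averages were high in replicate 2 of the Ccnd1-/- placebo group, and that was the only gland with a slow average over 1. Replicate 2 of the Ccnd1+/+ placebo group had the highest fast average with a slow average of 0.41. Of the 11 genes on the whole array that stood over 1 log2 unit above every other array in replicate 2 of the Ccnd1-/- placebo group, 5 were members: Myh2, Myh7, Myl2, Tnnt1 and Tnni1. Of the 96 such genes in replicate 2 of the Ccnd1+/+ placebo group, 24 were members, of which Mybpc1 was the only one with a slow label.

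**Figure D3:**
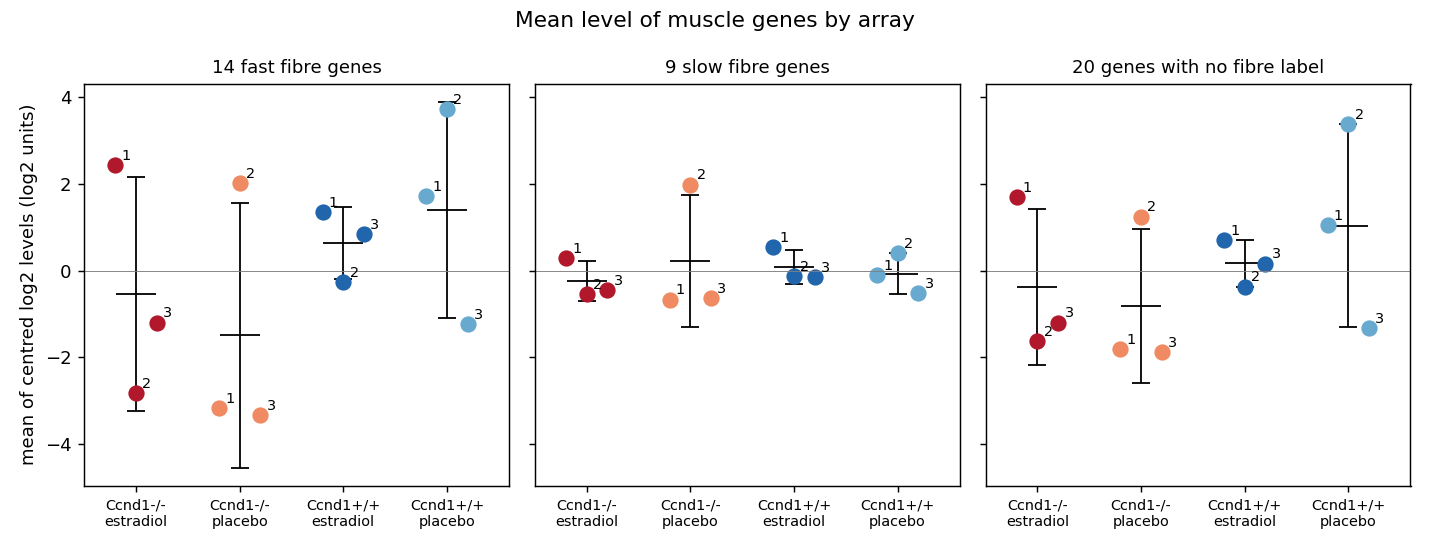
Points are the 12 arrays, numbered by replicate, and the y axis is the mean centred log2 level of 14 fast genes, 9 slow genes and 20 genes with no fibre label. Horizontal bars are group means with SD (n = 3). Fast genes range from -3.33 to 3.71, and slow genes from -0.67 to 0.54 apart from 1 gland at 1.98.

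**Figure D4:**
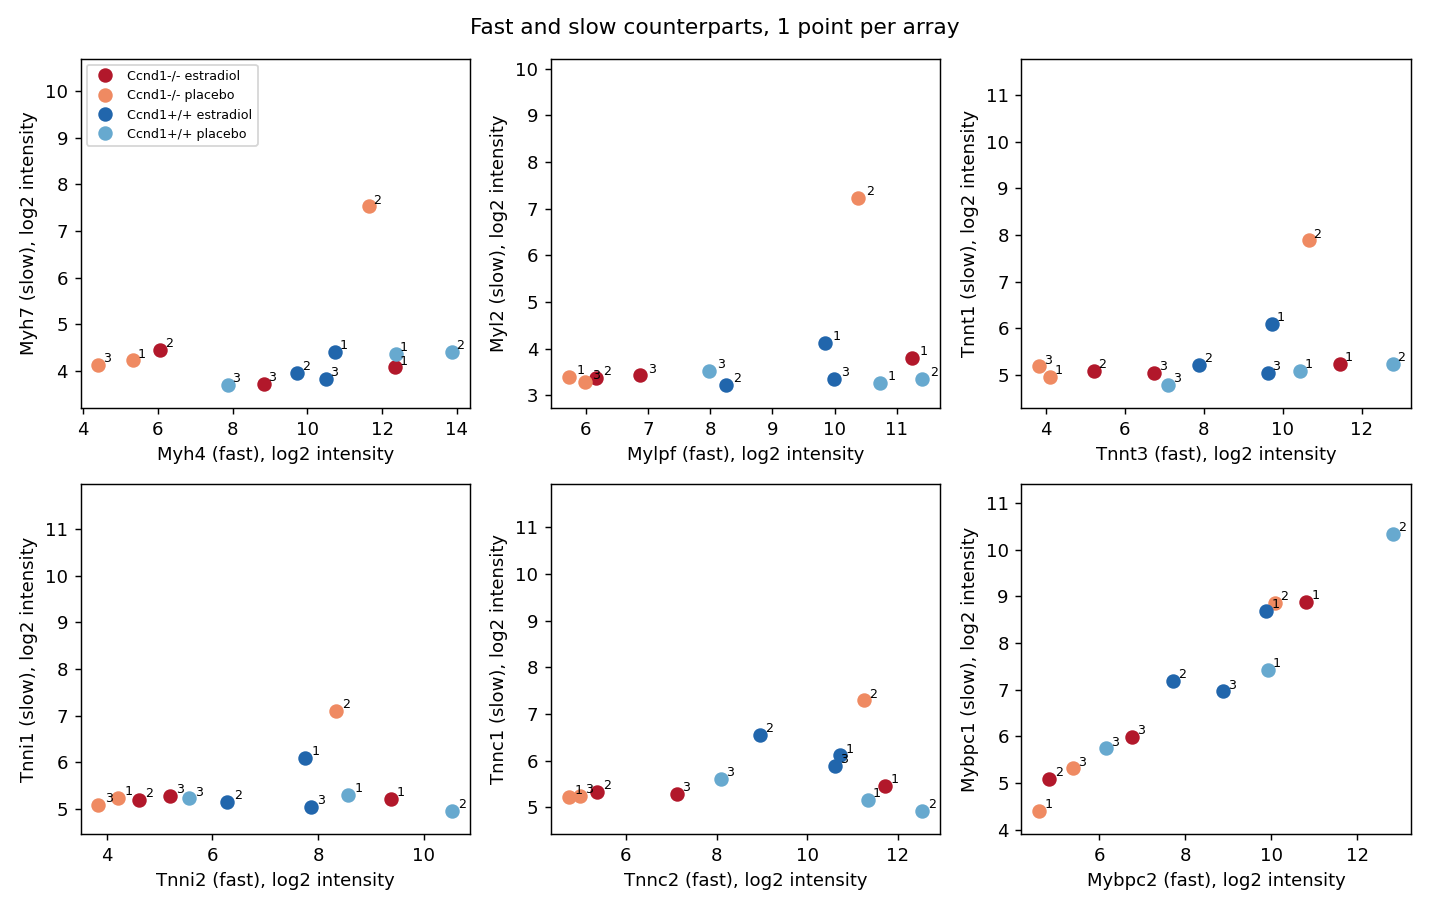
Each panel sets a slow gene (y axis, log2 intensity) against its fast counterpart (x axis, log2 intensity), 1 numbered point per array, coloured by group. In the heavy chain, regulatory light chain and troponin panels 1 gland, replicate 2 of the Ccnd1-/- placebo group, lies above the rest. In the panel of Mybpc2 and Mybpc1 the points climb together.

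The levels of the other cell types did not stay constant over the same glands. The 7 measured lymphocyte genes averaged -2.63, 1.71 and 0.40 in Ccnd1-/- estradiol glands, 2.20, -2.25 and 2.24 in Ccnd1-/- placebo glands, -2.42, 0.99 and -2.71 in Ccnd1+/+ estradiol glands, and 2.67, 2.02 and -2.22 in Ccnd1+/+ placebo glands. Among Ccnd1-/- glands the 2 glands rich in muscle genes were the poorest in lymphocyte genes, while in the Ccnd1+/+ placebo group the glands rich in muscle genes were rich in lymphocyte genes too. The 10 brown adipocyte genes, 4 of which (Cox7a1, Cox8b, Pdk4 and Fabp3) also stand in the list of muscle energy metabolism read further on, averaged 1.88, -1.24 and -1.01 in Ccnd1-/- estradiol glands, -1.15, -0.05 and 0.89 in Ccnd1-/- placebo glands, -1.49, -0.02 and 0.19 in Ccnd1+/+ estradiol glands, and -0.21, 1.18 and 1.03 in Ccnd1+/+ placebo glands. Muscle may use others of the 10 too. The 7 white adipocyte genes stayed between -0.46 and 0.46 and the 7 skin genes between -0.40 and 0.72. The part of these cell types in the muscle gene levels was not tested.

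Estradiol against placebo in Ccnd1-/- mice asks how the hormone acts without cyclin D1. No member was called by limma at a Benjamini-Hochberg adjusted p of 0.05, where 0.0989% of the 18194 genes were, and no member had an unadjusted p under 0.05, where 8.32% of genes did. Estradiol and placebo glands overlapped for every member, while 13.5% of genes had groups that did not overlap. The median difference, estradiol minus placebo, was 0.52 over the members and 0.01 over all genes, with 32 members above 0 and 11 below. The fast genes had a median difference of 0.94 and the slow genes of -0.56. Without replicate 1 of the Ccnd1-/- estradiol group the fast median was -0.58, and without replicate 2 of the Ccnd1-/- placebo group the slow median was 0.07. The member median turned on single glands too, at -0.65 without replicate 1 of the Ccnd1-/- estradiol group, -0.05 without replicate 1 or without replicate 3 of the placebo group, and 1.79 without replicate 2 of the placebo group. Leaving out replicate 1 or replicate 3 of the placebo group brought the fast median to 0.08 or 0.09.

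The 3 members with the smallest p in that comparison were slow genes. Myh7 differed by -1.21 ± 0.74 log2 units (SE, limma adjusted p = 0.718), Tnnt1 by -0.88 ± 0.64 (adjusted p = 0.765) and Myl2 by -1.10 ± 0.84 (adjusted p = 0.779). Without replicate 2 of the Ccnd1-/- placebo group these differences were -0.10, 0.06 and 0.19. The 95% interval for Acta1, -2.71 to 5.76, held differences of several log2 units in both directions.

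Estradiol against placebo in Ccnd1+/+ mice asks for the ordinary response of the gland. Again limma called no member at an adjusted p of 0.05, against 1.88% of all genes, and none had an unadjusted p under 0.05, against 13.5% of all genes. The estradiol and placebo glands did not overlap for 1 member of 43, Tnnc1, or 2.33%, against 17.0% of all genes. The median difference was -0.88 over the members and 0.01 over all genes, with 10 members above 0 and 33 below. Fast genes had a median of -0.91 and slow genes of 0.15. Without replicate 2 of the Ccnd1+/+ placebo group the fast median was 0.25, and without replicate 1 of the Ccnd1+/+ estradiol group the slow median was -0.07. The member median moved to 0.30 without replicate 2 of the Ccnd1+/+ placebo group, to -2.18 without replicate 3 of that group and to -0.42 without replicate 2 of the Ccnd1+/+ estradiol group. Among fast genes Myh2 had a difference of 1.07 and Myh1 of 0.01, and the other 12 were below 0.

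Tnnc1 averaged 6.18 in Ccnd1+/+ estradiol glands and 5.23 in Ccnd1+/+ placebo glands, a difference of 0.96 ± 0.47 log2 units (SE, unadjusted p = 0.0699, limma adjusted p = 0.425). Without replicate 2 of the Ccnd1-/- placebo group, which lies outside this comparison but enters the shared estimate of spread, the same difference of 0.96 had an adjusted p of 0.0492. Des came next at -0.93 ± 0.50 (adjusted p = 0.47), then Trdn at -1.97 ± 1.21 (adjusted p = 0.547). Neither passed.

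Smooth muscle and myoepithelial genes differed in this comparison. Of 14 measured, 5 rose with estradiol in Ccnd1+/+ glands at an adjusted p under 0.05: Acta2 and Actg2, the smooth muscle actins, Cnn1 (calponin), Tagln (transgelin) and Oxtr, the oxytocin receptor. Acta2 rose by 1.59 ± 0.21 log2 units (SE, limma adjusted p = 0.00522). The list averaged 0.64, 1.0 and 0.78 in Ccnd1+/+ estradiol glands and -0.75, -0.31 and 0.05 in Ccnd1+/+ placebo glands, without overlap. The luminal epithelium list separated the same groups, at 0.92, 2.16 and 1.59 in Ccnd1+/+ estradiol glands and 0.49, -0.24 and 0.80 in Ccnd1+/+ placebo glands, with 2 of 13 genes rising, Pgr and Prom1. The skin list did so as well, at 0.24, 0.72 and 0.41 in Ccnd1+/+ estradiol glands and -0.40, -0.35 and 0.03 in Ccnd1+/+ placebo glands, with 1 of 7 genes rising, Krt77. The averages of the nerve list and of the endothelium and pericyte list overlapped between these groups. In them limma called 1 of 3 genes, Sox10 (1.68, adjusted p = 0.0218), and 1 of 8, Rgs5 (-0.89, adjusted p = 0.0293). Tnnc1 was higher in the 3 Ccnd1+/+ estradiol glands, and the part of these cell types in its level was not tested.

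Ccnd1-/- against Ccnd1+/+ mice under estradiol asks what the loss of cyclin D1 changes in the stimulated gland. No member was called by limma, against 1.12% of all genes. At an unadjusted p under 0.05 stood 1 member, Tpm2, or 2.33%, against 13.5% of all genes. The groups did not overlap for 3 members, Tnnc1, Tpm2 and Casq2, all lower in Ccnd1-/- glands, or 6.98%, against 22.3% of all genes. The median difference, Ccnd1-/- minus Ccnd1+/+, was -0.74 over the members and 0.03 over all genes, with 7 members above 0 and 36 below. All 14 fast genes were below 0, with a median of -1.25, and slow genes had a median of -0.26. Without replicate 2 of the Ccnd1-/- estradiol group 7 fast genes lay above 0 and 7 below, and without replicate 1 of the Ccnd1+/+ estradiol group the slow median was 0.02. Without replicate 2 of the Ccnd1-/- estradiol group the member median was 0.02, without replicate 3 it was -0.27 and without replicate 1 it was -1.68. Without replicate 1 of the Ccnd1+/+ estradiol group it was -0.36.

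Tpm2 averaged 10.11 in Ccnd1-/- estradiol glands and 11.26 in Ccnd1+/+ estradiol glands, a difference of -1.14 ± 0.47 (SE, unadjusted p = 0.0351, limma adjusted p = 0.325). With all its probe sets averaged the unadjusted limma p was 0.226, and with median scaling 0.064. Without replicate 2 of the Ccnd1-/- estradiol group it was 0.115. In a fit of only the arrays compared it was 0.00359, with an adjusted p of 0.127. Tnnc1 differed by -0.82 ± 0.47 (adjusted p = 0.483) and Sln by -0.28 ± 0.20 (adjusted p = 0.591). In a fit of only the arrays compared the unadjusted limma p of Tnnc1 was 0.00371, with an adjusted p of 0.128. Without replicate 2 of the Ccnd1-/- placebo group, which lies outside this comparison, its adjusted p was 0.098. Neither fit called it. Of the 14 smooth muscle and myoepithelial genes, Acta2, Actg2, Cnn1 and Tagln fell in Ccnd1-/- glands under estradiol, Acta2 by 1.56 ± 0.21 log2 units (SE, limma adjusted p = 0.0151). That list averaged 0.04, -0.26 and -0.26 in Ccnd1-/- estradiol glands and 0.64, 1.0 and 0.78 in Ccnd1+/+ estradiol glands. The luminal list averaged -0.76, -1.51 and -0.57 in Ccnd1-/- estradiol glands and 0.92, 2.16 and 1.59 in Ccnd1+/+ estradiol glands, with 5 of 13 genes falling. The nerve list (1 of 3 genes falling, Sox10) and the skin list (1 of 7, Krt77) separated these groups too. Tpm2 and Tnnc1 were lower in the same 3 Ccnd1-/- glands, and the part of these cell types in their levels was not tested.

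Ccnd1-/- against Ccnd1+/+ mice under placebo gave the largest median difference of the 4 pairwise comparisons and still no call. Limma called no member and 0.0% of all genes, and no member had an unadjusted p under 0.05, where 2.03% of all genes did. The groups overlapped for every member, while 6.71% of all genes had groups that did not overlap. The median difference, Ccnd1-/- minus Ccnd1+/+, was -2.03 over the members and 0.02 over all genes, with 7 members above 0 and 36 below. All 14 fast genes lay below 0 with a median of -2.85, and 7 of 9 slow genes lay above 0 with a median of 0.65. The slow median rested on replicate 2 of the Ccnd1-/- placebo group: without it the slow median was -0.03, with 4 slow genes above 0 and 5 below, while the fast median was -4.42. Single glands moved these values too: the member median was -0.74 without replicate 2 of the Ccnd1+/+ placebo group, -2.99 without its replicate 3, and -3.08 without replicate 2 of the Ccnd1-/- placebo group. The members with an unadjusted p under 0.05 numbered 20 (46.5%, against 2.23% of all genes in that fit) without replicate 2 of the Ccnd1-/- placebo group. They numbered 23 (53.5%, against 4.85% of all genes) without replicate 3 of the Ccnd1+/+ placebo group. Each of these fits left out the gland that lay against the direction of its group. In every other fit with 1 array left out they numbered 0 to 2. The 2 members (4.65%, against 1.85% of all genes) came without replicate 1 of the Ccnd1-/- estradiol group. None passed the adjusted threshold in any of these fits.

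Myl1 had the smallest p in the placebo comparison, with a mean of 9.59 ± 1.79 in Ccnd1-/- placebo glands and 11.80 ± 1.15 in Ccnd1+/+ placebo glands (SD, n = 3 each) and a difference of -2.21 ± 1.06 (SE, unadjusted p = 0.0628, limma adjusted p = 1.0). Acta1 differed by -3.78 ± 1.91 (unadjusted p = 0.075 from limma) and Myh4 by -4.24 ± 2.16 (unadjusted p = 0.0779 from limma). Their 95% intervals ran -8.02 to 0.46 for Acta1 and -9.04 to 0.57 for Myh4. With 3 mice a group, neither difference was larger than the spread between mice allowed.

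**Figure D5:**
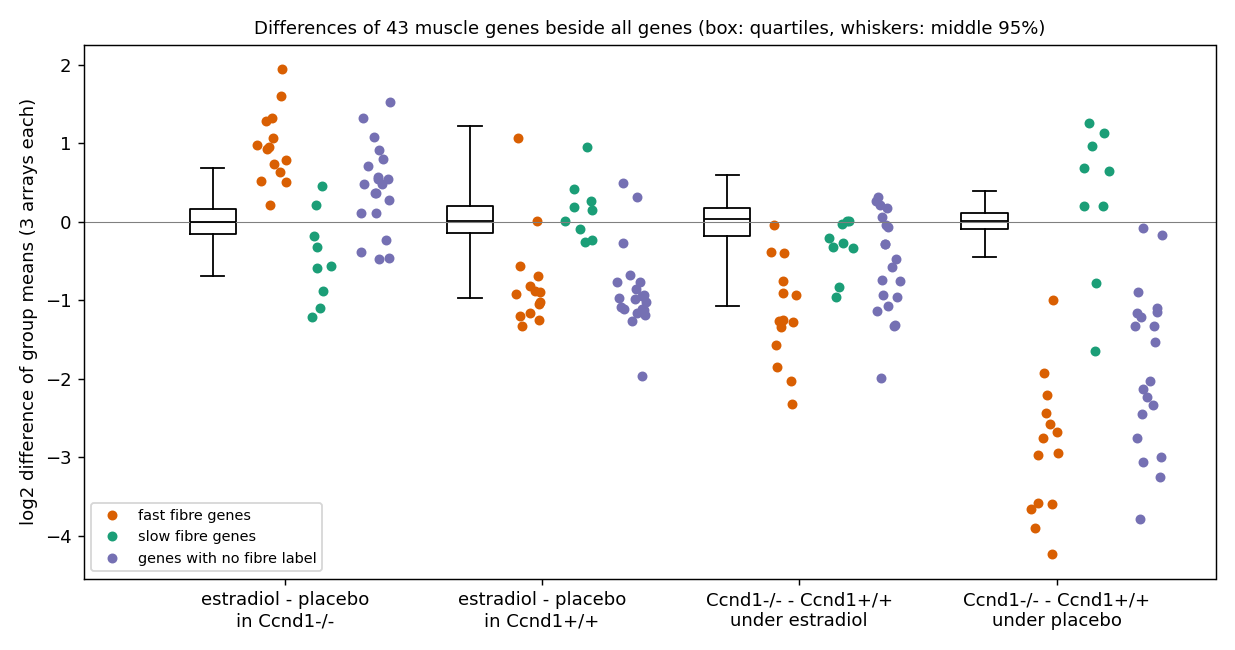
Each coloured point is a member, with its log2 difference of group means (3 arrays each) on the y axis, for the 4 pairwise comparisons along the x axis. Boxes give the quartiles and whiskers the middle 95% of all 18194 genes. The fast genes lie between -4.24 and -0.99 in the comparison of genotypes under placebo.

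The difference between the estradiol effects in the 2 genotypes, Ccnd1-/- minus Ccnd1+/+, was called by limma for no member and 0.011% of all genes. At an unadjusted p under 0.05 stood 1 member, Tnnc1, or 2.33%, against 6.44% of all genes. Tnnc1 had an estradiol difference of -0.56 in Ccnd1-/- mice and 0.96 in Ccnd1+/+ mice, and the difference between them was -1.51 ± 0.67 (SE, limma unadjusted p = 0.0464, adjusted p = 0.767). Without replicate 2 of the Ccnd1-/- placebo group it was -0.83, with a smaller unadjusted limma p of 0.0228 (adjusted p = 0.653). With 1 array left out in turn, the unadjusted limma p for Tnnc1 ran from 0.0203 to 0.0992. It was 0.058 with quantile scaling, 0.0689 with median scaling, 0.0512 with the replicate block and 0.0438 with trended robust moderation. Des followed at 1.21 ± 0.71 (adjusted p = 0.852) and Tpm2 at -0.98 ± 0.66 (adjusted p = 0.878). Over the members the median was 1.48, against 0.00 over all genes, and it was 0.07 without replicate 1 of the Ccnd1-/- estradiol group, 0.18 without replicate 2 of the Ccnd1+/+ placebo group and 2.81 without replicate 2 of the Ccnd1-/- placebo group. The comparisons share groups of mice, so they are not independent of each other.

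Other genes of muscle were read through lists beside the members. None of the 28 measured genes of sarcomere structure, 20 of excitation and calcium handling, 19 of muscle energy metabolism, 11 of myogenic regulators and satellite cells, 3 developmental myosin genes and 8 heart muscle genes was called by limma in any of the 5 comparisons. The counts at an unadjusted p under 0.05 ran from 0 to 2 per list and comparison. The structural genes varied with the members: their mean deviation was 1.23, -0.89 and -0.59 in Ccnd1-/- estradiol glands, -0.92, 0.61 and -1.02 in Ccnd1-/- placebo glands, 0.40, -0.34 and -0.13 in Ccnd1+/+ estradiol glands, and 0.21, 2.05 and -0.62 in Ccnd1+/+ placebo glands. The regulators' mean deviation lay between -0.22 and 0.31 over the 12 glands. Myod1, the founding MyoD family factor, read 4.70 to 5.93, while Pax7, which marks satellite cells, read 3.42 to 4.02 and lay under the lower quartile in all 12 arrays, as did Myf5 and Mymk. The heart genes' mean deviation lay between -0.14 and 0.08, and Myh6, the atrial heavy chain, and Myl7, the atrial light chain, lay under the lower quartile in all 12 arrays. Probe sets this dim may not register a change, so a narrow range says little of these genes.

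Genes outside the list were ranked by the Pearson correlation of their level with the members' mean over the 12 arrays. This is a description over 12 glands that share 4 groups, with no test. Of 18151 other genes 39 had a correlation over 0.9, as did 30 of the 43 members. The mean includes the members themselves, so their count cannot be set against that of the other genes. The highest were Tpm1 (0.993), the α-tropomyosin of fast fibres, then Apobec2 (0.975), an editing-enzyme relative found in striated muscle, Hjv (0.972), hemojuvelin, a co-receptor of bone morphogenetic proteins made in muscle and liver, Cox6a2 (0.971), the striated muscle form of a cytochrome oxidase subunit, and Tmod4 (0.970), which caps the pointed ends of muscle actin. Sh3bgr (0.963), Synpo2l (0.963), Lmod3 (0.963), the leiomodin of skeletal muscle, Eef1a2 (0.961), the elongation factor form of muscle and neurons, and Cmya5 (0.960), myospryn, completed the first 10. Tpm1 itself read 11.27, 7.02 and 7.43 in Ccnd1-/- estradiol glands, 6.90, 10.66 and 6.80 in Ccnd1-/- placebo glands, 9.94, 8.67 and 9.55 in Ccnd1+/+ estradiol glands, and 10.15, 12.69 and 7.95 in Ccnd1+/+ placebo glands. Its high and low glands were those of Acta1 and Tnnt3, with every group overlapping the others.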

How the data were processed

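RNA from 12 mammary glands, 1 mouse and 1 Affymetrix array each, was read as log2 intensities. The deposited log2 values were made by the authors with RMA, and limma 2.9.16 is also named, per the submitters' processing notes. They were used as deposited, with no further scaling. Of 45101 probe sets, 34958 name 1 gene, giving 18194 genes, and the probe set with the highest mean over the arrays stood for each gene. A 4-group model was fitted to all genes with limma 3.58.1 in R 4.3.3 (lmFit and eBayes, 8 residual and 2.15 prior degrees of freedom), two-sided, with Benjamini-Hochberg adjustment over all genes and a threshold of 0.05. The fit was tested on simulated data. The number of arrays, 3 a group, limits the precision.

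The members, fibre labels and 14 marker lists were chosen with earlier results of these data known, so lists are described by counts and medians. Per-array values are given for the fast and slow counterparts and the best known members. Named by rule were the 3 members with the smallest p in each comparison and those with the 3 widest and 3 narrowest ranges. Among these, Trdn is given by its range and difference only. The 10 other genes most like the members were named too, with per-array values only for Tpm1. Promoter windows came from RefSeq on GRCm38.p6, searched on both strands. Protein sequences were not used here. Alternatives were 22 other settings: probe set summaries, filters, scalings, moderation, array weights, a replicate block, smaller fits and each array left out.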

Additional observations from a re-analysis of the deposited data

How the results depend on the processing

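Of 109 recomputed counts of called members, 107 stayed at 0. The first exception was limma with array weights, which called 14 members for estradiol against placebo in Ccnd1+/+ mice, 13 of them lower and Tnnc1 higher (1.16 log2 units, adjusted p = 0.0106). That is 32.6% of the members, against 25.8% of all genes called by the same setting, whose estimate of the weights stopped before reaching its convergence tolerance. It moved the members' median difference to -2.68 there, to -4.56 between genotypes under placebo and to 4.13 for the difference between estradiol effects. This setting gave replicate 2 of the Ccnd1+/+ placebo group, the gland richest in muscle genes, a weight of 5.83 and replicate 3 of that group 0.249, so 1 mouse largely set that group's mean. The other exception was Tnnc1, called without replicate 2 of the Ccnd1-/- placebo group (adjusted p = 0.0492). With each array left out in turn, the called members numbered 0 to 1 for estradiol in Ccnd1+/+ mice and 0 in each other comparison. The members' median difference then ran from -0.65 to 1.79 for estradiol in Ccnd1-/- mice, -2.18 to 0.30 for estradiol in Ccnd1+/+ mice, -1.68 to 0.02 for Ccnd1-/- under estradiol, -3.08 to -0.74 for Ccnd1-/- under placebo and 0.07 to 2.81 for the difference between estradiol effects. Averaging all probe sets of a gene moved it to -0.39 for Ccnd1-/- under estradiol.

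The labels do not say what a replicate number marks. Of 18 same-numbered pairs of arrays, 7 had deviations correlated over 0.1 (range -0.74 to 0.66). Of 12 arrays, 0 was closest to one of its own number. Such correlations cannot show whether same-numbered mice shared a litter, batch or day, because muscle and lymphocyte gene levels also varied between glands. With the replicate number as a block, 0 members were called in all 5 comparisons, and the counts over all genes were 10, 158, 45, 0 and 0, beside 18, 342, 204, 0 and 2 without it, in the order estradiol in Ccnd1-/- mice, estradiol in Ccnd1+/+ mice, Ccnd1-/- under estradiol, Ccnd1-/- under placebo and the difference between estradiol effects. In the same order array weights called 73, 4702, 428, 4 and 84 genes, and leaving out 1 array gave 10 to 25, 100 to 1146, 0 to 315, 0 to 2 and 0 to 18. Fits of only the arrays compared called 5, 71, 47 and 0 genes in the 4 pairwise comparisons, and an adjusted p under 0.1 called 30, 715, 473 and 0, with 4 for the difference between estradiol effects. Median scaling called 186 genes for estradiol in Ccnd1+/+ mice. For Ccnd1-/- under estradiol it called 92, quantile scaling 133, and the fit without the dimmest 40% of genes 119. For the difference between estradiol effects median scaling, single probe sets and the fit without the dimmest genes each called 0, and quantile scaling and trended robust moderation each called 1. With 3 mice a group and muscle gene SDs of about 2 log2 units, large differences can go uncalled, and the low slow fibre genes lie close to the dim end of the arrays.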

Other observations

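Myh3, the embryonic heavy chain, which adult fibres express when they regenerate, read 6.01 in replicate 1 of the Ccnd1+/+ estradiol group and 4.10 to 4.66 in the other 11 glands. The same gland had the second highest values of Tnnt1 and Tnni1, at 6.10 each, and the highest of Sln, at 4.85. That gland stood apart more widely: 69 genes were over 1 log2 unit above every other array in it, none of them members. The 3 with the widest gaps, named after their values were seen, were Saa3, an acute-phase protein (12.38 against 9.39 in the next gland), Fpr2, a receptor of myeloid cells (9.43 against 6.97), and Adgre1, a macrophage marker (11.59 against 9.21). The part of such cells in the myosin levels was not tested. Myh8, the perinatal heavy chain, was also highest there, at 4.37, with 2.98 to 4.10 elsewhere. It is a dim probe set, under the lower quartile in 11 of 12 arrays, so this difference says little.

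Of the 71 probe sets of the members, 28 were not used as the gene's value. None of these 28 was called in any comparison by limma in the fit over single probe sets, and 8 of them ranged over less than 1 log2 unit.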
